A study of Mus musculus with 18 samples.

Results

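The apolipoprotein family was read in liver through 10 genes, Apoa1, Apoa2, Apoa4, Apoa5, Apob, Apoc1, Apoc2, Apoc3, Apoe and Apom. They were chosen by name, with earlier results of these data known. They are 10 of the 19597 named genes with a usable probe, and they carry 13 of the 35735 probes kept. All 10 genes passed the filter on dim probes, and each of the 13 probes lay well above background on all 18 arrays. The study asked what methotrexate does to liver metabolism in obese mice. Liver RNA of 18 male C57BL/6 mice was hybridised to one-colour Agilent arrays, 1 mouse per array. From 6 weeks of age the mice received a low fat diet (LFD, 10% fat) or a high fat diet (HFD, 60% fat). After 10 weeks of feeding, the MTX50 groups were given methotrexate, an antifolate chemotherapy, at 50 mg/kg into the peritoneum in 5 rounds, and livers were taken 1 week after the last. The groups were LFD (4 mice), LFD MTX50 (5 mice), HFD (4 mice) and HFD MTX50 (5 mice), all of 1 sex and strain.

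Apolipoproteins are the protein part of lipoproteins, the particles that carry triglyceride and cholesterol through blood, and the liver makes most of them. Apob is the structural protein of very low density lipoprotein (VLDL), Apoa1 and Apoa2 are the main proteins of high density lipoprotein (HDL), and the C proteins and Apoa5 set how fast lipoprotein lipase clears triglyceride. Apoe is the ligand by which remnant particles are taken up by receptors, Apom carries sphingosine 1-phosphate on HDL, and Apoa4, abundant in intestine, is induced in mouse liver when fat accumulates.

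Levels are log2 of the spot intensity after each array's 75th percentile was subtracted, so 0 is the intensity of the probe at that percentile. Levels of different probes are not compared, since probes bind with different strength. The 75th percentile of intensity ran from 1203 to 2263 over the arrays, 84.2 to 90.8% of spots lay well above background, and 0 spots were saturated. The median correlation of an array with the others of its group was 0.978 to 0.993. The arrays lay on 6 slides: all LFD arrays shared one, the LFD MTX50 arrays lay on 2 slides of their own, and HFD 3 and 4 shared a slide with HFD MTX50 1 and 2. Slide and group therefore cannot be told apart in comparisons with LFD or LFD MTX50. In whole liver, fewer cells of a type and less RNA per cell cannot be told apart.

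**Figure D1:**
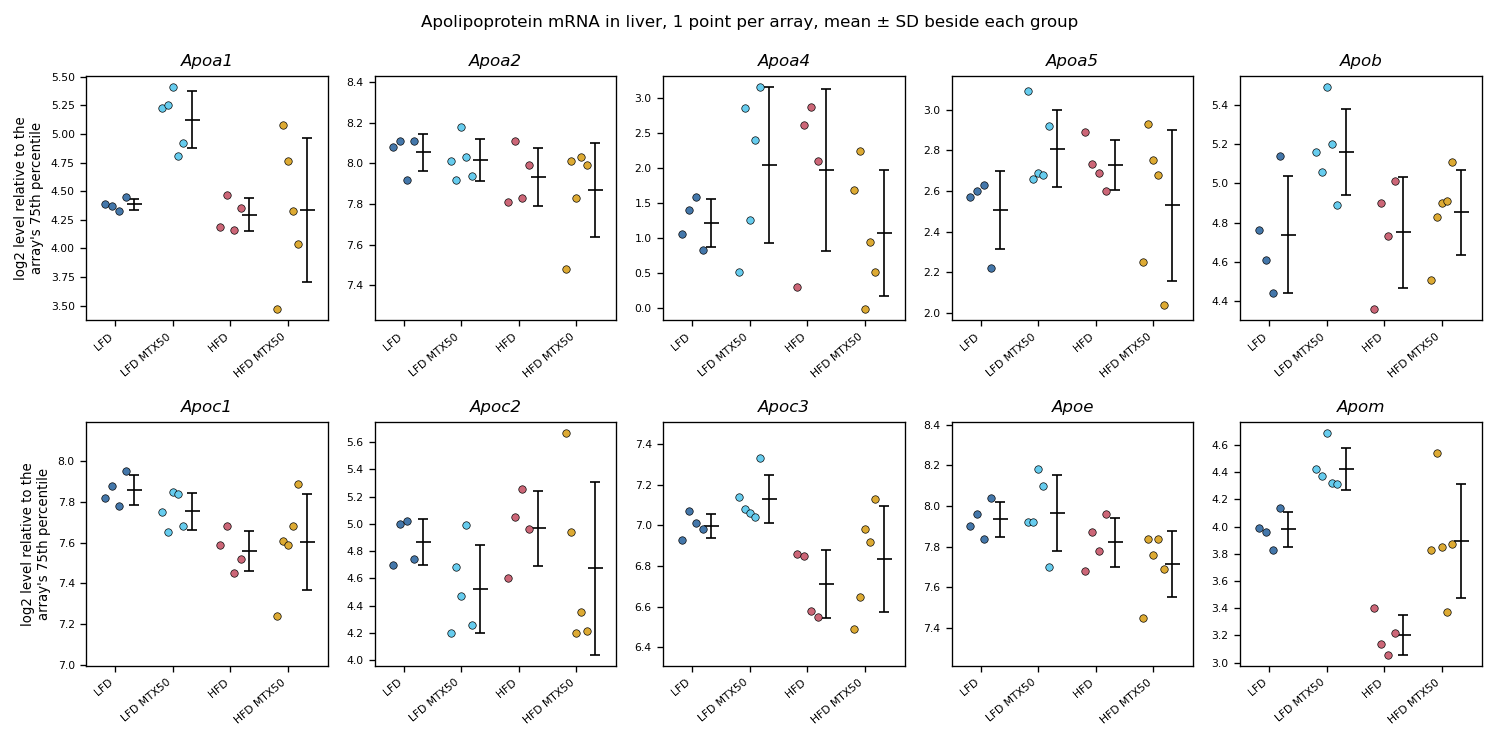
Levels of the 10 apolipoprotein mRNAs (log2, relative to the array's 75th percentile, brightest probe of each gene), 1 point per array, with the mean and SD beside each group. Apom was lowest in HFD, where the 4 arrays read 3.06 to 3.40, and Apoa1 was highest in LFD MTX50, where the 5 arrays read 4.81 to 5.41; each panel has its own vertical range.

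Apom was the member called in most comparisons, but these share groups, so its calls are not independent of each other. Its level was 3.99, 3.96, 3.83 and 4.14 in the LFD mice (mean 3.98 ± 0.13 SD, n = 4) and 3.40, 3.14, 3.06 and 3.22 in the HFD mice (3.21 ± 0.15 SD, n = 4). In LFD MTX50 it was 4.42, 4.37, 4.69, 4.32 and 4.31 (4.42 ± 0.15 SD, n = 5). In HFD MTX50 it was 3.83, 4.54, 3.85, 3.37 and 3.87 (3.89 ± 0.42 SD, n = 5). All HFD mice were below all LFD mice, and all LFD MTX50 mice were above all LFD mice. The HFD MTX50 mice spread widely, with mouse 4 inside the HFD range and mouse 2 inside the LFD MTX50 range. The order of the means was HFD, HFD MTX50, LFD and LFD MTX50, and in that order HFD MTX50 and LFD overlapped.

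Apoa1 stood out in a single group. It was 4.39, 4.37, 4.33 and 4.45 in LFD (4.39 ± 0.05 SD, n = 4) and 4.19, 4.47, 4.16 and 4.35 in HFD (4.29 ± 0.14 SD, n = 4). In LFD MTX50 it was 5.23, 5.25, 5.41, 4.81 and 4.92 (5.12 ± 0.25 SD, n = 5). In HFD MTX50 it was 3.47, 5.08, 4.76, 4.33 and 4.04 (4.34 ± 0.63 SD, n = 5). Every LFD MTX50 mouse was above every LFD and HFD mouse. The HFD MTX50 mice ran from the lowest value of all 18 arrays, in mouse 1, to a value inside the LFD MTX50 range, in mouse 2. The means of HFD, HFD MTX50 and LFD lay close together in that order, and their arrays overlapped.

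The promoters of these genes are shown because Apom and Apoa1 were the members that passed the test on their brightest probe, and Apoa5 because it neighbours Apoa1 and holds searched letters that both of them lack. RefSeq (assembly GRCm38.p6) gave 12 promoter windows for 8 of the 10 members, each from 250 bases before a transcription start to 50 after it, and none here for Apoc1 and Apoc3. The 250 bases before the start are printed 5′ to 3′ on the gene's strand, with searched motifs in capitals.
Apom, minus strand, chr17:35131802-35132051: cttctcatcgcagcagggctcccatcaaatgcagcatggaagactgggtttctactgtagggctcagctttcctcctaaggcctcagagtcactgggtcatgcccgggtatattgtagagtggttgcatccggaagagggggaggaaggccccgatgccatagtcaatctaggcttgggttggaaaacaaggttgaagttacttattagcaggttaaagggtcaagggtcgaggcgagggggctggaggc
Apoa1, plus strand, chr9:46228380-46228629: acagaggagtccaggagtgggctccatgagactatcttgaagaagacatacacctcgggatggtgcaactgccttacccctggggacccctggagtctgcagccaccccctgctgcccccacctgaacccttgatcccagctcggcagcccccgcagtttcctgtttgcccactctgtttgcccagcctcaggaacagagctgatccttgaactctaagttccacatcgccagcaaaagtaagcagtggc
Apoa5, plus strand, chr9:46268358-46268607: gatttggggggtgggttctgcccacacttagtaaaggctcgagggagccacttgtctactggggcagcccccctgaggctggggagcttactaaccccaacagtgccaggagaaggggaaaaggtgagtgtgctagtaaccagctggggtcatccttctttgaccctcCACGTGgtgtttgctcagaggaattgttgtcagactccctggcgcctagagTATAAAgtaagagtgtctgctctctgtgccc
The letters searched on both strands were CAAAGTCCA (HNF4 core), AGGTCA (nuclear receptor site), TATAAA (the TATA box), CACGTG (E-box), TTGCNNAA (C/EBP site) and TGACGT (core of the cAMP response element). None of them stood in the Apom and Apoa1 windows. The Apoa5 window held CACGTG from 82 to 77 bases and TATAAA from 31 to 26 bases before the start. Over all 32851 promoter windows, CACGTG stood in 7.15% and TATAAA in 13.6%. Among the 12 member windows, TATAAA stood in 5 (of Apoa2, Apoa5, Apob and Apoe), AGGTCA in 2 (Apoa2 and Apoc2, against 16.3% of all windows) and TTGCNNAA in 2 (Apoa2 and Apob, against 10.8%). The Apoa5 windows overlap and hold the same TATAAA, which is counted in each of them. On the gene strand TATAAA began 212 bases before the start in Apoa2, 60 in Apob and 96 in Apoe. CAAAGTCCA (0.475% of all windows) and TGACGT (7.51%) stood in none of the 12. A match is a run of letters only, and its absence covers this window alone.

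Between the untreated diet groups, where diet and slide cannot be told apart, 1 apolipoprotein mRNA passed the test on its brightest probe. The dimmer probe of Apoc3, given with its partner further on, also passed. In HFD against LFD, Apom was 1.71-fold lower (log2 difference -0.78 ± 0.18 SE, 95% interval -1.15 to -0.40, limma adjusted p = 0.0075). This was 1 of 10 members called, beside 28.3% of all genes called in either direction and 10.4% called lower. The next members in size of p were Apoc1, an HDL and VLDL protein that inhibits lipid transfer and receptor uptake, at -0.30 ± 0.11 SE (adjusted p = 0.061), and Apoc3, which inhibits lipoprotein lipase, at -0.29 ± 0.13 SE (adjusted p = 0.0962). Both missed the threshold, although in both every HFD mouse was below every LFD mouse. Groups without overlap were found in 3 of 10 members (Apoc1, Apoc3 and Apom) and in 40.3% of all genes. The other 7 members differed by -0.12 to 0.75, and the interval of the widest, Apoa4, was -0.55 to 2.06. The median over members was -0.10, beside 0.08 over all genes, and quantile normalization turned the members' median to 0.10. The call of Apom was lost under a random slide block (-0.84, adjusted p = 0.0598) and after normexp background correction (-1.04, adjusted p = 0.25). Apoc1 was called without HFD MTX50 mouse 1 (adjusted p = 0.0241) or mouse 5 (adjusted p = 0.0353), which share the spread but not the comparison. Scaling to the median (-0.39, adjusted p = 0.0313) and the value table of the series (-0.31, 0.0476) also gave a call of Apoc1. When only these groups were fitted, Apoc1 (0.0241) and Apoc3 (0.045) were called. Both were called too by the methods' t-test after Benjamini-Hochberg adjustment (0.021 and 0.0492).

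Apoc1 read 7.82, 7.88, 7.78 and 7.95 in LFD and 7.59, 7.68, 7.45 and 7.52 in HFD. Its 5 LFD MTX50 arrays read 7.75, 7.65, 7.85, 7.84 and 7.68, and its HFD MTX50 arrays 7.24, 7.61, 7.59, 7.68 and 7.89. All HFD mice were below all LFD mice, and the HFD MTX50 mice ran from the lowest value of all arrays, in mouse 1, into the LFD range, in mouse 5.

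With methotrexate on the high fat diet Apom rose. This comparison and HFD vs LFD share the HFD mice, so their opposite signs are not independent. In HFD MTX50 against HFD Apom was 1.61-fold higher (0.69 ± 0.17 SE, interval 0.33 to 1.04, limma adjusted p = 0.0209), with 4 of 5 treated mice above all HFD mice. This was 1 of 10 members called, beside 11.0% of all genes called in either direction, 4.83% higher and 6.13% lower, a background of 2148 genes that was 300 without HFD mouse 3, 282 without HFD mouse 4 and 0 when only these groups were fitted. On the slide that holds both groups, the 2 treated mice averaged 4.18 and the 2 HFD mice 3.14, a difference of 1.04 ± 0.23 SE (adjusted p = 0.0168). The other 9 members differed by -0.90 (Apoa4, interval -2.14 to 0.34) to 0.13 (Apoc3), and Apoa1 by 0.04 (interval -0.45 to 0.54). Of 10 members, 0 had groups without overlap, against 11.4% of all genes. The call of Apom was lost without HFD mouse 3 (0.64, adjusted p = 0.0827), without HFD mouse 4 (0.69, adjusted p = 0.0682), when only these groups were fitted (adjusted p = 0.0986), by the methods' t-test after Benjamini-Hochberg adjustment (adjusted p = 0.143) and after normexp correction (0.56, adjusted p = 0.381).

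With methotrexate on the low fat diet, where treatment and slide cannot be told apart, Apoa1 rose. In LFD MTX50 against LFD it was 1.67-fold higher (0.74 ± 0.23 SE, interval 0.25 to 1.23, limma adjusted p = 0.0278). This was 1 of 10 members called, beside 28.1% of all genes called in either direction, 17.6% higher and 10.5% lower. Apom differed by 0.44 ± 0.17 SE (adjusted p = 0.0549) and Apob by 0.42 ± 0.17 SE (adjusted p = 0.063), and neither passed. Apoa5, which promotes triglyceride clearance, differed by 0.30 ± 0.16 SE (adjusted p = 0.163). In 3 of 10 members (Apoa1, Apoa5 and Apom) every LFD MTX50 mouse was above every LFD mouse, against 29.1% of all genes with groups that did not overlap. The call of Apoa1 was lost without any of mice 1, 2 and 3 of either group (0.67 to 0.74, adjusted p = 0.0519 to 0.0669), under a random slide block (0.71, adjusted p = 0.208), with scaling to the median (0.64, adjusted p = 0.0549) and after normexp correction (0.43, adjusted p = 0.341). Conversely, Apom was called without HFD MTX50 mouse 2 (adjusted p = 0.0152) or 4 (adjusted p = 0.0301), and Apob without LFD mouse 4 (0.56, adjusted p = 0.0286), LFD MTX50 mouse 5 (0.49, adjusted p = 0.0454) or HFD mouse 1 (adjusted p = 0.048). Apom was also called after quantile normalization (0.55, adjusted p = 0.0294) and with only probes above background on every array or an intensity trend (both 0.0485). The same held when only these groups were fitted (0.0135) and by the methods' t-test after Benjamini-Hochberg adjustment (0.0176).

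Between the treated groups, where diet and slide cannot be told apart, Apoa1 and Apom were lower on the high fat diet. This comparison reuses mice of those above, so the calls are not independent of them. In HFD MTX50 against LFD MTX50, Apoa1 was 1.73-fold lower (-0.79 ± 0.22 SE, limma adjusted p = 0.026) and Apom 1.45-fold lower (-0.53 ± 0.16 SE, adjusted p = 0.0324), 2 of 10 members beside 16.1% of all genes called, 7.37% higher and 8.75% lower. The arrays of both genes overlapped between the groups. Of 10 members, 9 had a negative difference, with a median of -0.29 beside -0.06 over all genes. Apoe (-0.25, adjusted p = 0.0972) and the brighter probe of Apoc3 (-0.29, adjusted p = 0.0838) were the nearest of those that did not pass. Without overlap between the groups were 0 members and 6.13% of all genes. Both calls were lost when mouse 1, 2 or 3 of LFD MTX50 was left out, or mouse 4 or 5 of HFD MTX50, and that of Apom also without HFD MTX50 mouse 3 (adjusted p = 0.0509 to 0.0853 over these), under a random slide block (adjusted p = 0.182 for Apoa1 and 0.212 for Apom), and when only these groups were fitted (0.107 and 0.113). Leaving out 1 array or quantile normalization also gained calls, of Apoe without LFD MTX50 mouse 5 (-0.32, adjusted p = 0.0367) and of Apoc3 without HFD MTX50 mouse 5 (-0.37, adjusted p = 0.0398) or after quantile normalization (-0.32, adjusted p = 0.028).

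**Figure D2:**
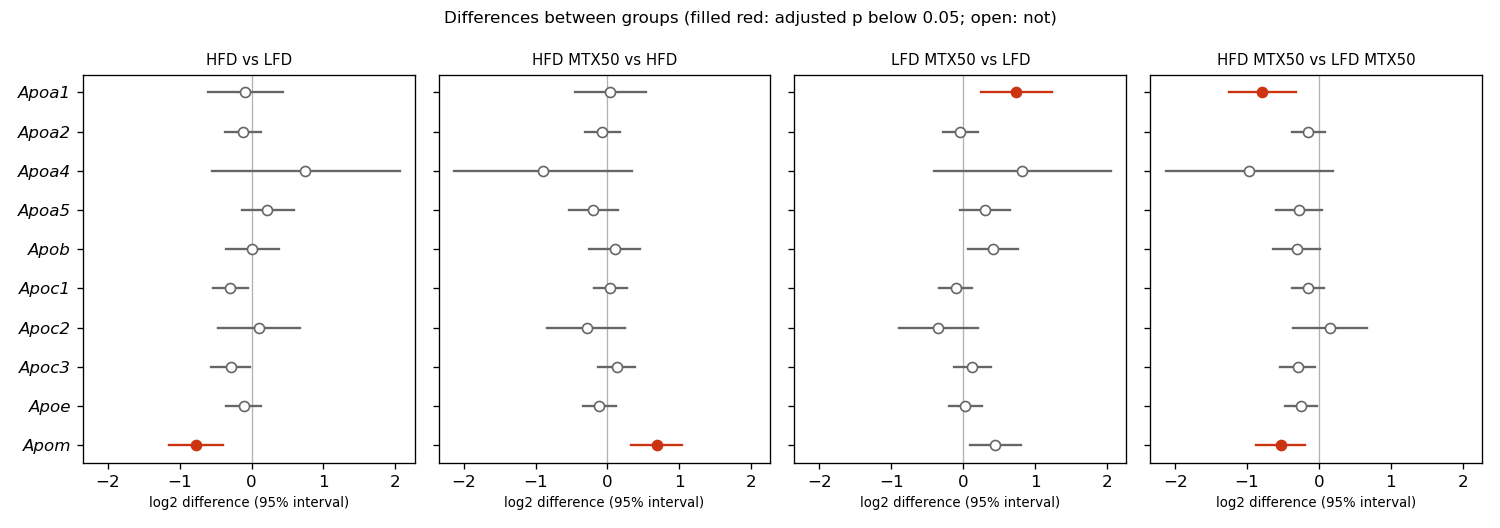
Log2 differences of the 10 members in 4 comparisons (points) with 95% intervals (lines), from the model over all arrays; filled red points have an adjusted p below 0.05. Apom lies at -0.78 in HFD vs LFD and at 0.69 in HFD MTX50 vs HFD, Apoa1 at 0.74 in LFD MTX50 vs LFD, and the interval of Apoa4 is the widest in each panel.

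Whether methotrexate acted differently on the diets was tested directly, as its effect on HFD minus its effect on LFD. In the LFD part of this difference treatment and slide cannot be told apart. Of 10 members 0 were called, beside 26.8% of all genes called by limma (8.66% higher and 18.1% lower). An unadjusted limma p below 0.05 was found for 1 of 10 members (Apoa5), beside 7959 of all 19597 genes. The estimates furthest from 0 were Apoa4 at -1.72 ± 0.83 SE (interval -3.47 to 0.03, adjusted p = 0.125), Apoa1 at -0.70 ± 0.33 SE (adjusted p = 0.12) and Apoa5 at -0.50 ± 0.23 SE (adjusted p = 0.111). The difference for Apom was 0.24 ± 0.24 SE (interval -0.26 to 0.74), so the effect of methotrexate on Apom was not shown to differ between the diets. That effect was called on HFD and not on LFD in the model over all arrays. With only the groups compared it was called on LFD (adjusted p = 0.0135) and not on HFD (0.0986). Leaving out HFD mouse 1 brought Apoa4 past the threshold (-2.28, adjusted p = 0.0308), and leaving out HFD MTX50 mouse 2 brought Apoa1 (-0.88, adjusted p = 0.028) and Apoa5 (-0.60, adjusted p = 0.0459) past it. Quantile normalization did so too for Apoa1 (-0.96, adjusted p = 0.0456) and Apoa5 (-0.69, adjusted p = 0.0395).

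Exact permutation tests of the group means were run for the 10 members in the 4 comparisons of groups, two-sided, 40 tests in all. The smallest exact p that 4 against 4 mice allow is 0.029, and with 4 or 5 against 5 it is 0.0079. Apom, Apoc1 and Apoc3 reached the former in HFD vs LFD, and Apom and Apoa1 the latter in LFD MTX50 vs LFD. Apom in HFD MTX50 vs HFD had an exact permutation p of 0.024. After Benjamini-Hochberg adjustment over the 40 tests, the lowest value was 0.16, so 0 members passed by this test. A single value at either floor could not pass that adjustment, so the count of 0 says little about the members.

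Apoa4 varied more between mice of a group than any other member. It read 1.06, 1.41, 1.59 and 0.83 in LFD and 0.30, 2.62, 2.88 and 2.10 in HFD. In LFD MTX50 it read 0.52, 2.86, 1.26, 2.41 and 3.16. In HFD MTX50 it read 1.69, 2.24, -0.01, 0.95 and 0.52. Its SD was 0.34 for LFD, 1.11 for LFD MTX50, 1.16 for HFD and 0.90 for HFD MTX50, against medians over the members of 0.11, 0.19, 0.14 and 0.31. HFD mouse 1, below all LFD mice, set most of the spread in HFD, where the other mice were above all LFD mice. None of the 4 comparisons passed for this gene (adjusted p 0.226 to 0.359).

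Neither Apob nor Apoc2 was called in any comparison of the model over all arrays. Apob ran from 4.44 to 5.14 in LFD, 4.89 to 5.49 in LFD MTX50, 4.36 to 5.01 in HFD and 4.51 to 5.11 in HFD MTX50. Its dimmer probe differed by -0.20 to 0.18 over the 4 comparisons of groups, with 0 of 4 called. Apoc2, the activator of lipoprotein lipase, averaged 4.87 ± 0.17 (SD, n = 4) in LFD, 4.52 ± 0.32 (n = 5) in LFD MTX50, 4.97 ± 0.28 (n = 4) in HFD and 4.67 ± 0.63 (n = 5) in HFD MTX50. HFD MTX50 mouse 1, at 5.67, was the highest for Apoc2 of all arrays, while it was the lowest of its group for 6 of 10 members. Under quantile normalization that array was the lowest of its group for 2 of 10. It had the highest 75th percentile of intensity of its group, 2263. The brightest arrays of LFD and HFD by that measure, LFD 3 (1900) and HFD 1 (2180), were lowest for 6 and 5 of 10. LFD MTX50 5 (1684) was lowest for 3. The dimmest, LFD 4 (1484), LFD MTX50 3 (1268), HFD 4 (1428) and HFD MTX50 5 (1203), were highest for 6, 6, 2 and 3. Whether member levels follow array brightness was not tested. Without HFD MTX50 mouse 1, Apoa1 in HFD MTX50 vs HFD moved from 0.04 to 0.26 (adjusted p = 0.334), and Apom stayed at 0.70 (adjusted p = 0.024).

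Apoa5 averaged 2.50 ± 0.19 (SD, n = 4) in LFD, 2.81 ± 0.19 (n = 5) in LFD MTX50, 2.73 ± 0.12 (n = 4) in HFD and 2.53 ± 0.37 (n = 5) in HFD MTX50. Apoe averaged 7.93 ± 0.08, 7.97 ± 0.19, 7.82 ± 0.12 and 7.71 ± 0.16 in the same order of groups. Apoa2, on its brighter probe, averaged 8.05 ± 0.09, 8.01 ± 0.11, 7.93 ± 0.14 and 7.87 ± 0.23, and both of its probes stayed within 0.15 of 0 in all 4 comparisons. For Apoe and Apoa2 the 95% intervals of HFD vs LFD were -0.35 to 0.13 and -0.37 to 0.13.

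The Apoc3 probes did not move alike. The brighter probe (A_55_P2117155) read 6.93, 7.07, 7.01 and 6.98 in LFD and 6.86, 6.85, 6.58 and 6.55 in HFD. The dimmer probe (A_55_P2013710), which the files assign to another transcript of the gene, read 1.75, 1.81, 1.85 and 1.70 in LFD and 2.48, 2.10, 2.25 and 2.26 in HFD. Every HFD mouse was thus below every LFD mouse on the first probe and above on the second. The brighter probe read 7.14, 7.08, 7.06, 7.04 and 7.33 in LFD MTX50 and 6.49, 6.65, 6.98, 6.92 and 7.13 in HFD MTX50, where mice 1 and 2 lay within or below the HFD range. In LFD MTX50 the dimmer probe read 1.44, 1.64, 1.63, 1.38 and 1.50, all below LFD, and in HFD MTX50 it read 1.39, 2.07, 2.13, 1.89 and 1.61. Its difference was 0.49 ± 0.14 SE in HFD vs LFD (limma adjusted p = 0.0187) and -0.46 ± 0.13 SE in HFD MTX50 vs HFD (adjusted p = 0.0393), where the brighter probe gave 0.13 ± 0.12 SE (adjusted p = 0.494). Both comparisons share the HFD mice, so the opposite signs are not independent. The rise with diet was lost under a random slide block (adjusted p = 0.115), with scaling to the median (0.0529), after normexp correction (0.549) and without HFD mouse 3 (0.05), and the fall with methotrexate without any of 8 arrays (LFD 3, HFD 1, 2, 3 or 4, HFD MTX50 1, 4 or 5, adjusted p up to 0.107), and under 9 other settings, among them the slide as a fixed term (-0.53, adjusted p = 0.135) or a random block (0.0531), the replicate block (0.085), normexp (0.381), scaling to the median (0.0614), only the groups compared (0.137) and the methods' t-test after adjustment (0.177). Which bases of the transcripts each probe covers was not read here.

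**Figure D3:**
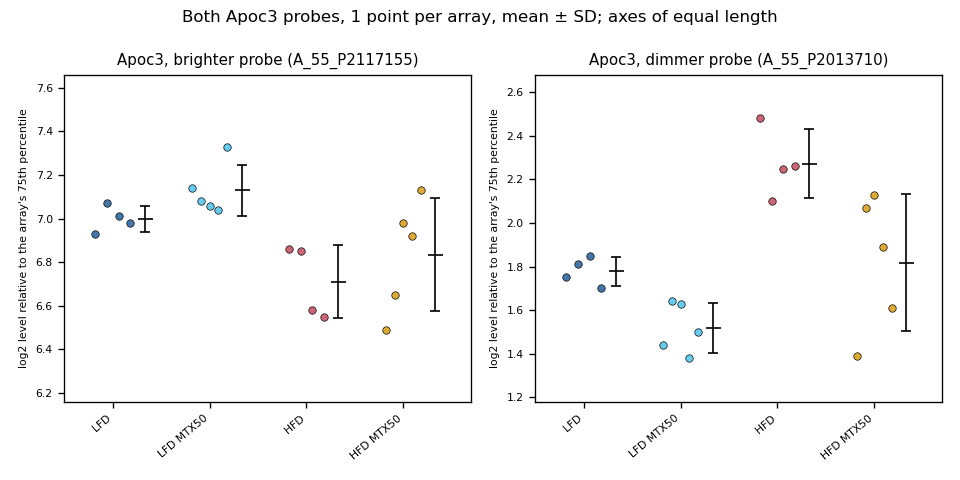
Levels of both Apoc3 probes (log2, relative to the array's 75th percentile), 1 point per array with the mean and SD beside each group, on axes of equal length. From LFD to HFD the brighter probe goes from 6.93 to 7.07 down to 6.55 to 6.86, and the dimmer probe from 1.70 to 1.85 up to 2.10 to 2.48.

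The rest of the lipoprotein pathway was read through 72 other genes in 7 role lists, all 72 of them tested. In HFD vs LFD, 4 were higher and 14 lower (25% called, against 28.3% of all genes), with a median of -0.14. Here too diet and slide cannot be told apart. Of 10 genes of lipoprotein assembly and secretion, 3 fell and 0 rose: Mttp, which loads lipid onto Apob, by 0.55 (adjusted p = 0.00862), Mia2, an adaptor for export from the endoplasmic reticulum, by 0.42 (0.0255), and Sar1b, the GTPase of the coat that carries lipoproteins out, by 0.38 (0.0146). Among 22 transcription factors, 5 fell and 1 rose. Those lower were Ppargc1a, a coactivator of fasting genes (-1.20, adjusted p = 0.00528), Mlxipl, the carbohydrate response factor (-0.77, 0.00688), Hnf4a, the nuclear receptor of hepatocyte genes (-0.55, 0.0178), Rora (-0.45, 0.0258) and Nr1h3, an oxysterol receptor (-0.45, 0.0171).

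Of 10 lipases, transfer proteins and regulators, 2 fell and 2 rose with diet. Pltp, which transfers phospholipid to HDL, fell by 1.44 (adjusted p = 0.0138) and Angptl8, an inhibitor of lipoprotein lipase, by 1.22 (0.036), while endothelial lipase, Lipg, rose by 0.78 (0.0176) and Gpihbp1, the capillary anchor of lipoprotein lipase, by 0.45 (0.0134). Of 11 receptors and their regulators, Lsr fell by 1.10 (0.0163) and the HDL receptor Scarb1 by 0.68 (0.0211), and Sort1 rose by 0.67 (0.00814). Abca1, which lipidates Apoa1, fell by 0.63 (0.0135), the only one called of 4 transporters. Apoh was the only one called of 11 other apolipoproteins and HDL proteins (-0.43, 0.0238), and of 4 genes for editing of Apob mRNA 0 were called. With HFD mouse 3 or 4 left out, the pathway calls fell from 18 to 6 and 7, without HFD MTX50 mouse 5 they came to 28, under a random slide block to 0, and quantile normalization gave 5 higher and 8 lower.

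**Figure D4:**
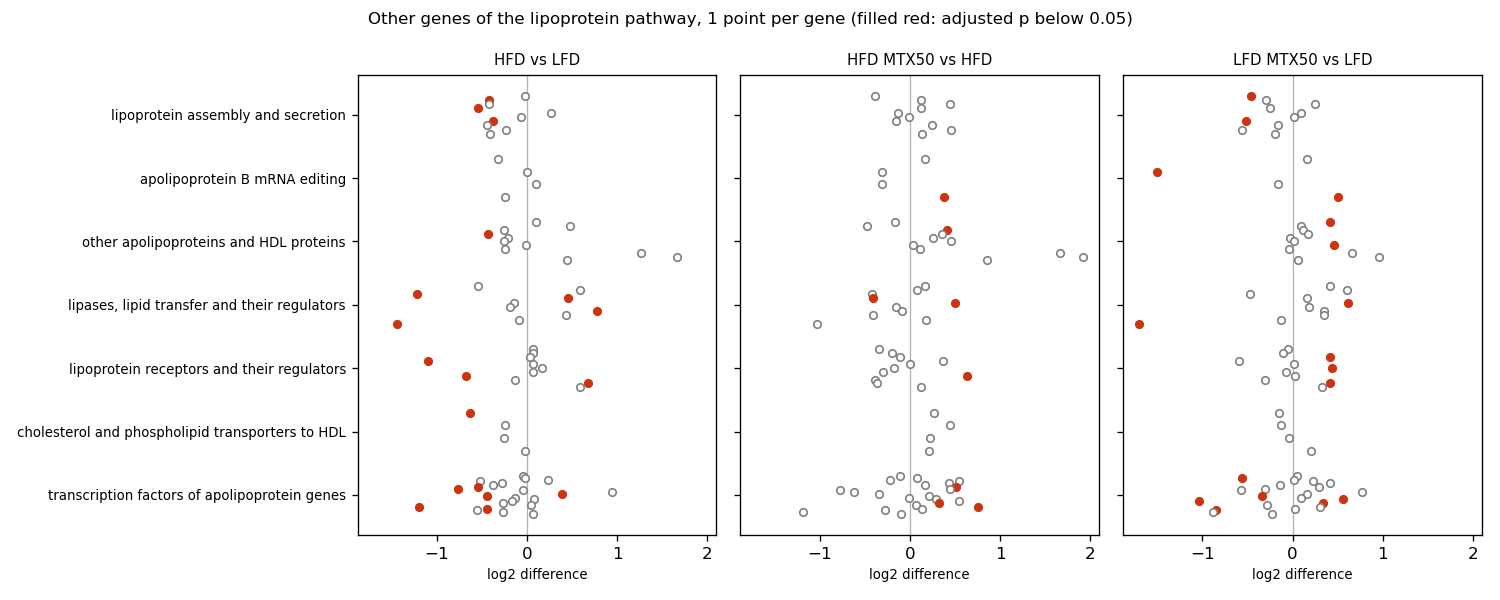
Log2 differences (horizontal axis) of the 72 other lipoprotein pathway genes by role list in 3 comparisons, 1 point per gene; filled red points have an adjusted p below 0.05. In HFD vs LFD 4 are higher and 14 lower, in HFD MTX50 vs HFD 7 and 1, and in LFD MTX50 vs LFD 9 and 8.

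With methotrexate on the high fat diet, 7 of the 72 genes rose and 1 fell (11.1% called, against 11.0% of all genes), with a median of 0.12. Hnf4a (0.51, adjusted p = 0.0381), Ppargc1a (0.76, 0.0482) and Nr5a2, a nuclear receptor of bile acid and cholesterol genes (0.32, 0.041), were the 3 of 22 transcription factors called. Scarb1 rose by 0.63 (0.0432), Lcat, which esterifies the cholesterol of HDL with Apoa1 as activator, by 0.50 (0.0272), and Apof by 0.41 (0.0308). Syncrip, a partner of the editing complex, rose by 0.38 (0.0374), and Gpihbp1 fell by 0.41 (0.0324). Hnf4a, Ppargc1a, Scarb1 and Gpihbp1 were also called in HFD vs LFD, with the other sign, but both comparisons share the HFD mice, so this is not an independent sign. The count went to 0 without HFD mouse 3 or 4, to 1 without HFD mouse 2, to 5 without mouse 1 of LFD, mouse 1 of LFD MTX50 or mouse 4 of HFD MTX50, to 4 without mouse 5 of HFD MTX50, and to 15 without HFD MTX50 mouse 1. It was 0 when only these groups were fitted and 1 with the slide as a fixed term, and quantile normalization gave 4 higher and 6 lower.

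With methotrexate on the low fat diet, 9 of the 72 genes rose and 8 fell (23.6% called, against 28.1% of all genes). Here too treatment and slide cannot be told apart. Pltp fell by 1.70 (adjusted p = 0.00496) and Lcat rose by 0.61 (0.00496). Apobec1, the deaminase that edits Apob mRNA, fell by 1.50 (0.00676), and Syncrip rose by 0.50 (0.00547). Sar1b (-0.52, 0.00277) and Cideb, which enlarges VLDL with lipid (-0.46, 0.0243), were lower. The remnant receptor Lrp1 (0.42, 0.0138) and Sort1 (0.42, 0.0433) were higher, as were Pon1 (0.46, 0.0443) and Apoc4 (0.41, 0.00802), both carried on lipoproteins. Of the transcription factors, Nr2f2 (-1.04, 0.0117) and Creb3l3, a fasting factor for Apoa4 (-0.56, 0.0286), fell, and Nr2f1 (0.56, 0.0196) rose, with Nr5a2 (0.34, 0.0168) and Nr1h3 (-0.34, 0.0409) tied in size after them. The count was 11 without LFD mouse 2 or 3 and 0 under a random slide block, and scaling to the median gave 5 higher and 10 lower.

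Between the treated groups, 7 of the 72 genes were higher and 8 lower in HFD MTX50 than in LFD MTX50 (20.8% called, against 16.1% of all genes). Diet and slide cannot be told apart in this comparison. The acute phase proteins that ride on HDL were higher, Saa2 by 2.62 (adjusted p = 0.0252), Saa1 by 2.27 (0.0312) and Saa4 by 1.23 (0.0128). Saa1 and Saa2 are near-identical genes whose probes may share signal. Apobec1 was 1.19 higher (0.023) and Nr2f2 1.41 higher (0.00605). Angptl8 (-1.17, 0.0394), an inhibitor of lipoprotein lipase, was lower, as were Apoc4 (-0.48, 0.00707) and Lrp1 (-0.50, 0.00968). Of these pathway calls 0 were left under a random slide block, with only these groups fitted, by the methods' t-test after adjustment or after normexp, 6 without mouse 2 of LFD MTX50 or mouse 3 or 4 of HFD MTX50, and 7 without mouse 3 of LFD MTX50, while scaling to the median gave 7 higher and 5 lower. Saa1 and Saa2 lost their calls without mouse 2, 3 or 4 of LFD MTX50 (adjusted p = 0.0501 to 0.0629), Apobec1 without mouse 3 of LFD MTX50 (0.0557) or mouse 3 or 4 of HFD MTX50 (0.0555 and 0.0606), and Angptl8 without any of 6 mice (mice 2, 3 and 4 of either treated group, 0.0542 to 0.101). The effect of methotrexate differed between the diets in 12 of the 72 genes, 4 higher and 8 lower on HFD (16.7%, against 26.8% of all genes), 8 higher and 2 lower after scaling to the median, 1 and 7 after quantile normalization, and 5 genes without HFD mouse 3 or 4.

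Some genes followed a member closely over the 18 arrays. Over 19391 other genes, those with the highest Pearson r were Pip (0.98) and Tinagl1 (0.97) for Apoa4, Isoc2a (0.93) and Hgfac (0.90) for Apoa1, and Eef2 (0.93) and Rps28 (0.93) for Apom. Around the group means, r was 0.98 for Pip and Tinagl1, 0.93 for Isoc2a, 0.88 for Hgfac, 0.64 for Eef2 and 0.74 for Rps28. The highest for the others were Milr1 and Rbp4 with Apoa2 (0.90 and 0.87), Olfr1143 and Map3k7 with Apoa5 (both 0.86), 2610028H24Rik and Kctd14 with Apob (0.91 and 0.90), and Milr1 and Serpina1e with Apoc1 (both 0.91). They were Hsbp1 and Plekha1 with Apoc2 (0.91 and 0.88), Scrn3 and Commd5 with Apoc3 (0.92 and 0.90), and Ilrun and Rbp4 with Apoe (0.88 and 0.86). These are the highest of many values over arrays that share scaling and groups, and are given as a description.

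Among the members themselves, Apoa2 went with Apoc1 (r = 0.83) and Apoe (0.82), and Apoc2 ran against Apoc3 (-0.71). Under quantile normalization these values were 0.27, 0.76 and -0.16, so the first and the last depended on how the arrays were scaled. Apoa1 and Apom correlated at 0.68 (0.60 after quantile normalization, 0.50 around the group means), and Apoa1 and its neighbour Apoa4 at 0.15.

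Markers of liver cells and of other tissues were read beside these results. All 7 measured of 8 hepatocyte markers were above background on all arrays. Their summed level, each probe on a linear scale with 1 at the array's 75th percentile, was 854 to 985 in LFD, 910 to 1050 in LFD MTX50, 760 to 854 in HFD and 670 to 1040 in HFD MTX50. With diet 2 of 7 were called, Cps1 (-1.24, adjusted p = 0.00498) and Fga (-0.67, 0.026), beside 28.3% of all genes called in either direction. Alb (-0.23), Ttr (-0.18), Ass1 (-0.55), Arg1 (-0.38) and Serpina1a (-0.16) were not called. With methotrexate Fga alone was called on HFD (1.02, 0.00904), and Fga (0.61, 0.0305) and Arg1 (0.63, 0.0496) on LFD. Cps1 was not called with methotrexate on HFD (0.46, 0.196) or on LFD (0, 0.991). Markers of enterocytes, another source of Apoa1 and Apoa4, summed to 11.1 to 17.2 in LFD, 3.33 to 7.94 in LFD MTX50, 20.1 to 21.8 in HFD and 5.20 to 19.6 in HFD MTX50, with 3 of the 4 on the array above background throughout. The enterocyte markers did not move as a group: with methotrexate Fabp2 fell on HFD (-1.35, 0.0242) and on LFD (-1.64, 0.00473), where Lct (0.49, 0.0734), Alpi (0.42, 0.0797) and Vil1 (-0.70, 0.464) were not called, and with diet Lct (0.60, 0.0424) and Alpi (0.59, 0.028) rose while Fabp2 (0.59, 0.223) and Vil1 (-0.74, 0.461) did not pass.

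Adipocyte markers, 5 of 5 above background on all arrays, summed to 0.362 to 0.526 in LFD, 0.482 to 0.841 in LFD MTX50, 4.16 to 6.68 in HFD and 0.627 to 1.59 in HFD MTX50. The largest change in that list was of Cfd, which rose by 5.99 with diet (0.00252) and fell by 5.32 with methotrexate on HFD (0.00665). With diet Lep (2.30, 0.00254) and Plin1 (0.64, 0.007) rose too, while Adipoq (-0.04, 0.901) and Retn (-0.23, 0.358) were not called, and Adipoq rose (0.88, 0.0163) with methotrexate on HFD, where the sum was lower. Neutrophil markers, 4 of 5 above background on all arrays, summed to 0.996 to 1.31, 1.08 to 6.90, 1.02 to 2.08 and 1.17 to 49.5 in the same order, with Ngp not above background on any LFD or HFD array. Kupffer cell and macrophage markers (10 of 11) summed to 47.7 to 66.7, 37.1 to 46.3, 36.0 to 60.8 and 58.6 to 83.2. Erythroid markers, 2 of 4 above background on all arrays, summed to 3.12 to 3.73, 0.466 to 1.09, 2.86 to 3.68 and 0.754 to 3.77. Stellate cell (13 to 22), sinusoidal endothelium (9.03 to 15.2) and cholangiocyte markers (0.189 to 0.395) are given over all 18 arrays. The part of these cells in the differences of the apolipoprotein mRNAs was not tested.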

How the data were processed

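Liver RNA of 18 mice was measured on one-colour arrays, 1 per mouse. Per the file headers, the authors had Agilent Feature Extraction 10.7.3.1 subtract the background and correct each array for spatial trends, and the deposited spot intensities are linear and not normalized between arrays. From these, log2 intensity minus each array's 75th percentile over spots that are not controls was computed, spots marked as outliers were left out and spots of a probe averaged. Probes well above background on at least 4 arrays were kept. Probes were named through RefSeq transcripts (assembly GRCm38.p6), which named 71.1% of them, and a gene was read on its brightest probe. limma 3.58.1 in R 4.3.3 fitted 1 model with the 4 groups, with Benjamini-Hochberg adjustment over all 35735 probes, and a gene was called at an adjusted p below 0.05. The same steps were tested on simulated data. Exact permutation tests were two-sided.

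The genes named are the 10 members with all their probes, at most 5 called genes of a role list and comparison by size of change (some of these genes are not reported here), and for each member the 2 other genes with the highest correlation. The members, lists, tests and alternatives were chosen with earlier results of these data known. Marker genes shown beside the results were picked from the marker lists after their values were seen. Since the files hold no mean signal, normexp used the median signal in its place. The alternatives were normexp background correction, quantile normalization, scaling to the median of bright probes, the value table of the series (deposited linear intensities that equal the background-subtracted signal of the same spots within rounding, before the correction for trends), other filters on dim probes, only the groups compared, an intensity trend with robust variances, the methods' t-test (Student), 2-fold rules, slide and replicate blocks, the mean of a gene's probes, and leaving out each array. The number of arrays limits the precision, and p-values cover the spread between the mice measured.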

Additional observations from a re-analysis of the deposited data

Results flagged for a closer look

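An array set apart from the others of its group was found in 2 of 40 groups of a member's values, and chance gives about 1 in 20. These were Apoa5 in LFD mouse 4, at 2.22 below the other LFD mice, and Apom in LFD MTX50 mouse 3, at 4.69 above the others of its group. The effect of methotrexate differed between the diets, by the limma test of the difference itself, in 12 other lipoprotein genes. That is 16.7% of the 72 tested, against 26.8% of all genes. Of the 12, 4 were higher and 8 lower on HFD, a balance that turned with scaling to the median, as given above. For 11 of them the difference is given here, the log2 effect on HFD minus that on LFD. It was positive for Nr2f2 (1.59), Tm6sf2 (1.02), Mlxipl (0.77) and Nr1h3 (0.55). It was negative for Nr1d1 (-1.39), Sort1 (-0.79), Lmf1 (-0.75), Apoc4 (-0.58), Gpihbp1 (-0.57), Lrp1 (-0.53) and Nr1h2 (-0.50). With the slide as a random block 0 of these 12 differences were called.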

How the results depend on the processing

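The results above used 14 other settings and 18 fits with 1 array left out, plus the fixed slide block in HFD MTX50 vs HFD. No called member changed sign. Of 869 member values under other settings, 40 lost a call and 16 gained one, and of 1170 with 1 array left out 28 lost and 13 gained one. Another 48 and 40 values that were never called changed sign.

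The counts of members called were 1 for the diet (HFD vs LFD), 1 for methotrexate on the high fat diet (HFD MTX50 vs HFD), 1 for methotrexate on the low fat diet (LFD MTX50 vs LFD), 2 between the treated groups (HFD MTX50 vs LFD MTX50) and 0 for the difference between effects. They became 0 wherever they were above it under normexp correction and both 2-fold rules. With the slide as a random block they became 0 except in HFD MTX50 vs HFD. With only the groups compared and by the methods' t-test with Benjamini-Hochberg adjustment they were 3 for the diet, 2 for methotrexate on LFD and 0 in the other comparisons of groups. Scaling to the median gave 2 for the diet and 0 for methotrexate on LFD, the value table of the series 2 in HFD vs LFD, and quantile normalization, the stricter filter and the intensity trend 2 in LFD MTX50 vs LFD. Quantile normalization gave 2 for the difference between effects. With 1 array left out the ranges were 1 to 2, 0 to 1, 0 to 2, 0 to 3 and 0 to 2 in the order above.

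The pathway genes called were 18 for the diet, 8 for methotrexate on the high fat diet, 17 for it on the low fat diet, 15 between the treated groups and 12 for the difference. In that order they were 0, 0, 2, 0 and 0 under normexp, 0, 4, 0, 0 and 0 with the random slide block, and 4, 0, 3, 6 and 3 with adjusted p and 2-fold. The methods' t-test with 2-fold gave 5, 0, 3 and 4. The t-test with adjustment and the groups compared alone gave 0 between the treated groups and 0 in HFD MTX50 vs HFD, where the fixed slide block gave 1. Only the groups compared gave 33 in HFD vs LFD. With 1 array left out the ranges were 6 to 28, 0 to 15, 11 to 20, 6 to 15 and 5 to 15. Of all genes, normexp called 2 in HFD vs LFD (5555 otherwise) and 0 in HFD MTX50 vs HFD (2148 otherwise), and the median of all genes became 0.38 and 0.39 there (0.08 and -0.04 otherwise). The 3158 genes called between the treated groups became 18 under the random slide block, 9 with only the groups compared, 113 by the adjusted t-test and 1 under normexp. Without HFD mouse 3 or 4 the 5555 genes called for the diet became 2244 and 2556. The random slide block called 380 for the diet and 340 of 5503 for methotrexate on the low fat diet, where normexp called 339, and 1249 of 5243 for the difference. The cause was not tested.

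Replicate numbers did not pair the mice: of 25 pairs with the same number 6 correlated over 0.1 (r from -0.31 to 0.25). With the replicate block the pathway count in HFD MTX50 vs HFD was 0, and the counts of members called were 1, 1, 1, 2 and 0. The fixed slide block could be fitted in 1 comparison only, and the fits of 2 groups and t-tests give no value for the difference between effects.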
